A study of Mus musculus with 9 samples.

Results

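The genes described here encode the machinery of oxidative phosphorylation, 108 of the 28517 genes listed for livers of db/db mice. They were chosen by name: the Nduf, Uqcr and Atp5 genes, Cox4 to Cox8, the 4 Sdh genes, and the protein-coding genes of the mitochondrial genome, with pseudogene names left out. Of these, 95 lie in the nuclear genome and 13 in the mitochondrial genome. The livers came from mice given FGF19ΔKLB, FGF19WT or PBS (the vehicle) for 12 weeks, with 3 libraries in each group. All groups share the db/db genotype, a loss of the long leptin receptor that leads to obesity and diabetes. FGF19 is a gut hormone that acts on hepatocytes through FGFR4 and the co-receptor β-klotho, and the labels do not give the change behind ΔKLB. The headers code that group as HBS without explaining it, so it is named here by its sample titles. Age, sex, dose and route are not given in the sources used here. The labels do not say whether libraries come from separate animals, so p-values measure the spread between these samples.

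The respiratory chain passes electrons through complexes I to IV and pumps protons out of the mitochondrial matrix, and complex V uses the returning protons to make ATP. Most subunits are encoded in the nucleus and imported. A hydrophobic core is encoded in the small circular mitochondrial genome, which is transcribed into long precursors that are cut into messenger, ribosomal and transfer RNA. Complex II has no mitochondrially encoded subunit. The products of both genomes meet in the same complexes, and the comparison of their transcripts across treatments is the question here.

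Total counts were 69.1 to 73.3 M counts with FGF19ΔKLB, 65.1 to 70.6 M counts with FGF19WT and 68.8 to 73.3 M counts with vehicle. Low counts lie at multiples of 4 for 3.74 to 4.29 times as many genes as at neighbouring values. They may therefore stand for fewer reads, which was not tested. FGF19WT libraries 2 and 3 stand apart: the first principal component of log2 CPM (counts over the TMM-adjusted library size, as for all levels), with 57.0% of the variance, puts them at 91.5 and 112, and the other 7 between -40.1 and -10.4. The 8 periportal hepatocyte markers summed to 212 and 249 CPM in those 2 libraries, against 5391 to 7938 in the other 7, and the 8 pericentral markers to 32028 and 28591 CPM, against 2021 to 8955. The 6 Kupffer cell markers summed to 20.8 and 6.76 CPM there, against 138 to 212, the 5 sinusoidal endothelial markers to 17.2 and 8.49 CPM, against 48.5 to 102, and the 6 cell cycle genes to 89.8 and 123 CPM, against 5.39 to 20.2. All 10 hepatocyte markers were detected, with sums of 215278 to 306320.0 CPM with FGF19ΔKLB, 103640.0 to 213949 with FGF19WT and 112673 to 171587 with vehicle. The sum in each FGF19ΔKLB library is above every vehicle library, but the list was divided. Of its 10 genes, 6 had a higher and 4 a lower estimate with FGF19ΔKLB than with vehicle (log2 fold changes -0.65 to 1.39). T and NK cell markers summed to 1.69 to 2.72 CPM with FGF19ΔKLB, 0.999 to 2.46 with FGF19WT and 6.63 to 15.0 with vehicle. B and plasma cell markers summed to 6.93 to 9.12 CPM with FGF19ΔKLB, 0.958 to 8.61 with FGF19WT and 13.3 to 48.7 with vehicle. These B and plasma cell sums do not stand for each gene. With FGF19WT 3 of the 5 had a lower and 2 a higher estimate than with vehicle (median log2 fold change -0.50). With FGF19ΔKLB the 5 were lower, with a median of -0.27. The part of these markers in the results below was not tested, and in bulk tissue fewer cells of a type and less RNA per cell cannot be told apart.

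Several members share reads with near-identical copies elsewhere in the genome, so some sequences come first. Among annotated transcripts, 21 members had 28 copies outside the members with at least 98% identity over at least 150 bases, and the members Ndufb4 and Ndufb4c are such a pair with each other. The 7 mitochondrial members among them have their copies side by side on the minus strand of chromosome 1 (GRCm38), in pseudogenes counted under their own names. The mt-Nd4l transcript (chrMT:9877-10173, plus strand) is shown because it had the smallest p of the mitochondrial members for FGF19ΔKLB against vehicle. Capitals mark its last 3 bases, beyond the end of the copy Gm10222 (chr1:24612407-24612700), which matches the other 294 in full. The first 60 bases of mt-Nd3 (chrMT:9459-9806, plus strand) and of its copy Gm28438 (chr1:24612775-24613119, minus strand) show how little separates such a pair, and capitals mark the 1 base that differs.
mt-Nd4l: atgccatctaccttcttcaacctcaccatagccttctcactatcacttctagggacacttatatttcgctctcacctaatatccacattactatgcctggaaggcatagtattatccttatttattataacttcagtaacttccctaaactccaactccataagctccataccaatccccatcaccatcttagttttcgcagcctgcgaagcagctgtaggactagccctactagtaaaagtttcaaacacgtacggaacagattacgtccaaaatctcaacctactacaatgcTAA
mt-Nd3: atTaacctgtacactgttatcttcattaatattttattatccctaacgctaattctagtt
Gm28438: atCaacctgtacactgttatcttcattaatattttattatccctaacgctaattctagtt

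For most such pairs the deposited counts were divided in a steady way. The mt-Nd4l gene held 50.2% to 54.1% of the counts of the pair over the 9 libraries. For mt-Co1, with 1542 coding bases, the share was 84.6% to 87.6% of the summed counts with Gm29216, which matches it over 483 bases. Over the matching bases, the level of a member cannot be read apart from its copy. For mt-Atp6, a subunit of the proton channel of complex V, the share was 13.7% to 16.5% in 8 libraries and 54.8% in vehicle library 1. Its level was 674, 979.7 and 948 CPM with FGF19ΔKLB, 1062, 1123 and 1669 CPM with FGF19WT, and 7855, 1008 and 956 CPM with vehicle. Vehicle library 1 is the only high one, and its copy Gm10925 was not lower there, at 6477 CPM, against 6374 and 5858 CPM in the other vehicle libraries. For FGF19ΔKLB against vehicle the log2 fold change of mt-Atp6 was -1.92 ± 0.77 (SE), -0.74 when summed with its copy, and -0.18 without vehicle library 1.

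The division was not steady for 2 nuclear members. Ndufs5 is an accessory subunit of complex I named here after its values were seen. Of its summed counts with the processed pseudogene BC002163 (chr16:42955631-42955949), Ndufs5 held 19.3% to 53.6% with FGF19ΔKLB, 22.1% to 98.5% with FGF19WT and 13.5% to 20.7% with vehicle. For FGF19WT against vehicle the member alone had a log2 fold change of 1.18 and the pair -0.43, so the sign depends on which locus received the reads. Ndufa12, another accessory subunit, held 46.9% to 88.1% of its summed counts with Gm15920 (chr5:130188395-130188796) with FGF19ΔKLB, 45.2% to 50.0% with FGF19WT and 43.7% to 67.7% with vehicle. The pair summed to 36.7 to 52.2 CPM over all libraries, with a log2 fold change for FGF19ΔKLB against vehicle of 0.06, beside 0.36 for the member alone.

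**Figure D1:**
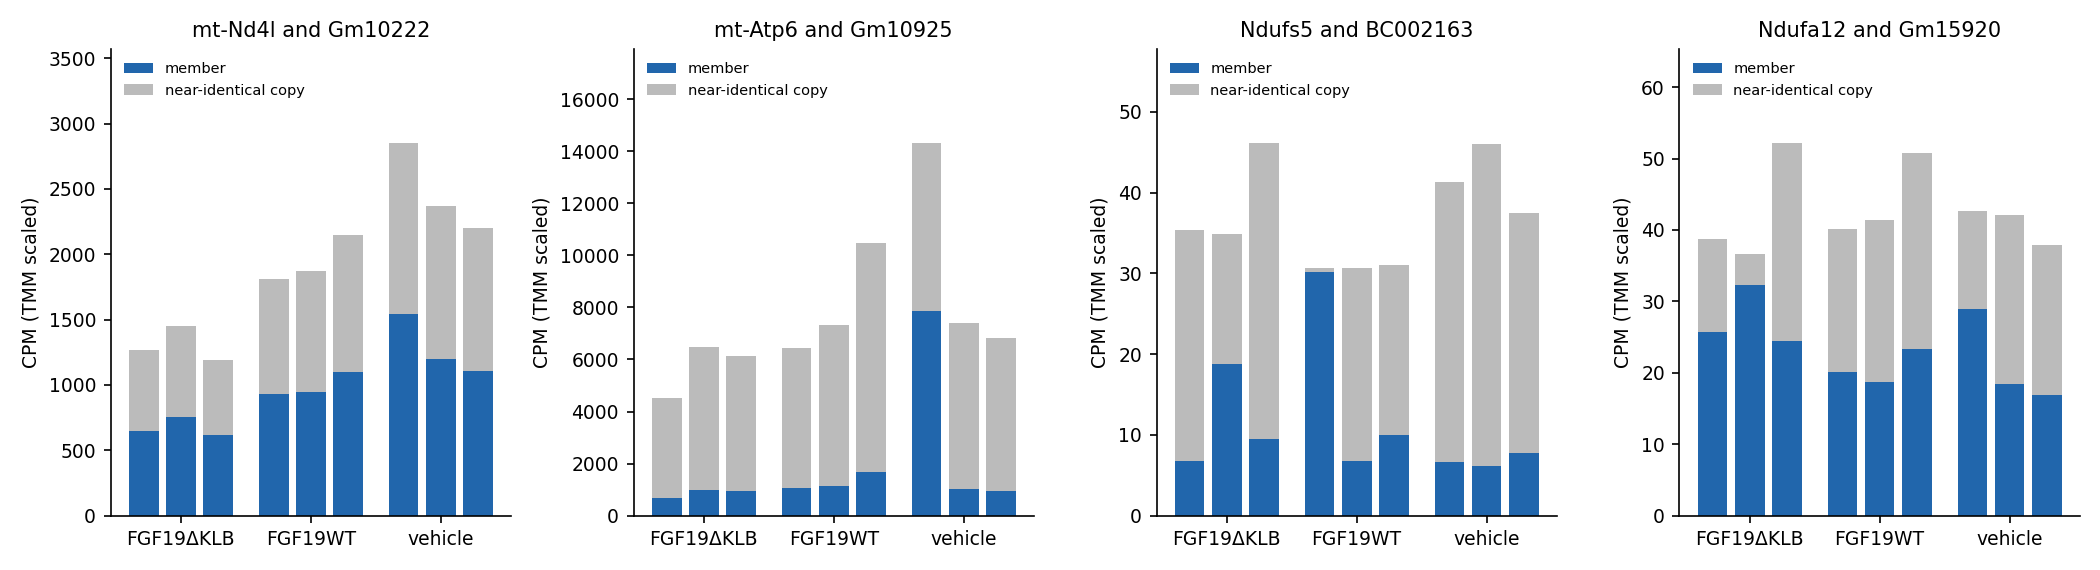
CPM of members and of their near-identical copies, stacked, in the 9 libraries of FGF19ΔKLB, FGF19WT and vehicle. The mt-Nd4l pair is divided evenly in every library, mt-Atp6 is tall in vehicle library 1 alone (7855 CPM), and in FGF19WT library 1 nearly all counts of the Ndufs5 pair go to the member.

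Per length, the mitochondrial genome members were far above the nuclear ones. Their mean FPKM (fragments per kilobase of transcript, scaled to the library) ran from 1367 for mt-Nd3 to 16430 for mt-Co1, the catalytic subunit of complex IV, with a median of 5193 FPKM. Nuclear members had a median of 43.1 FPKM. The highest nuclear members were Cox6b1 (254 FPKM), which joins the monomers of complex IV, and Atp5a1 (204 FPKM), the alpha chain of the catalytic head of complex V. In complex III the small subunit Uqcr10 led with 163 FPKM, in complex II the membrane anchor Sdhd with 135 FPKM, and in complex I the accessory subunits Ndufa8 and Ndufb9 with 105 and 100.3 FPKM.

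The 13 mitochondrial genome members took 4.94%, 6.34% and 6.24% of all counts with FGF19ΔKLB, 6.84%, 8.31% and 11.8% with FGF19WT, and 9.73%, 7.38% and 7.61% with vehicle. The FGF19ΔKLB libraries lie below all others in these shares. In TMM-scaled CPM the sums were 53059, 65563 and 73643 with FGF19ΔKLB, 70669.8, 71542 and 111130.0 with FGF19WT, and 95149, 74274 and 70312 with vehicle, and there FGF19ΔKLB library 3 overlaps both other groups. The 95 nuclear members took 0.848%, 0.926% and 0.853% with FGF19ΔKLB, 0.960%, 0.913% and 0.950% with FGF19WT, and 1.02%, 1.07% and 1.01% with vehicle. Both treated groups lie below vehicle in these shares, and both overlap vehicle in TMM-scaled CPM, with sums of 9116 to 10064 with FGF19ΔKLB, 7855 to 9922 with FGF19WT and 9347 to 10743.5 with vehicle. Albumin, the main secreted liver protein, took 16.3% to 21.1% of counts with FGF19ΔKLB, 8.67% to 16.4% with FGF19WT and 8.61% to 13.5% with vehicle, and its part in these shares was not tested.

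Whether the groups overlapped in their ratio depended on how the members were summed. The log2 ratio of summed mitochondrial to summed nuclear counts was 2.54, 2.78 and 2.87 with FGF19ΔKLB (mean 2.73 ± 0.17 SD, n = 3), 2.83, 3.19 and 3.63 with FGF19WT (3.22 ± 0.40), and 3.26, 2.79 and 2.91 with vehicle (2.99 ± 0.24). The difference from vehicle was -0.26 with FGF19ΔKLB and 0.23 with FGF19WT; the SD within a group was 0.17 to 0.40, and no test was made on this sum over the members. Without FGF19WT libraries 2 and 3, the difference of FGF19WT from vehicle was -0.15, so its sign rests on those 2 libraries. Between FGF19ΔKLB and FGF19WT the difference was -0.49, and -0.10 without them.

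The overlap between FGF19ΔKLB and vehicle went under 3 other sums. With summed FPKM the log2 ratio was 3.38 to 3.60 with FGF19ΔKLB, 3.67 to 4.33 with FGF19WT and 3.71 to 4.17 with vehicle, so that FGF19ΔKLB lies below all other libraries (difference from vehicle -0.36). With mt-Co1 left out of the summed counts it was 1.79 to 2.11 with FGF19ΔKLB, 2.07 to 3.03 with FGF19WT and 2.22 to 2.67 with vehicle, a difference of -0.41 between FGF19ΔKLB and vehicle. As a difference of mean log2 CPM it was 5.50 to 5.77 with FGF19ΔKLB, 5.75 to 6.47 with FGF19WT and 5.91 to 6.46 with vehicle, which gave -0.47 for FGF19ΔKLB and 0.02 for FGF19WT against vehicle. FGF19ΔKLB lies below vehicle in each of these 3, and overlaps FGF19WT in the last 2. The overlap with vehicle stayed when copies were added to their members or assembly factors and paralogs were left out.

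**Figure D2:**
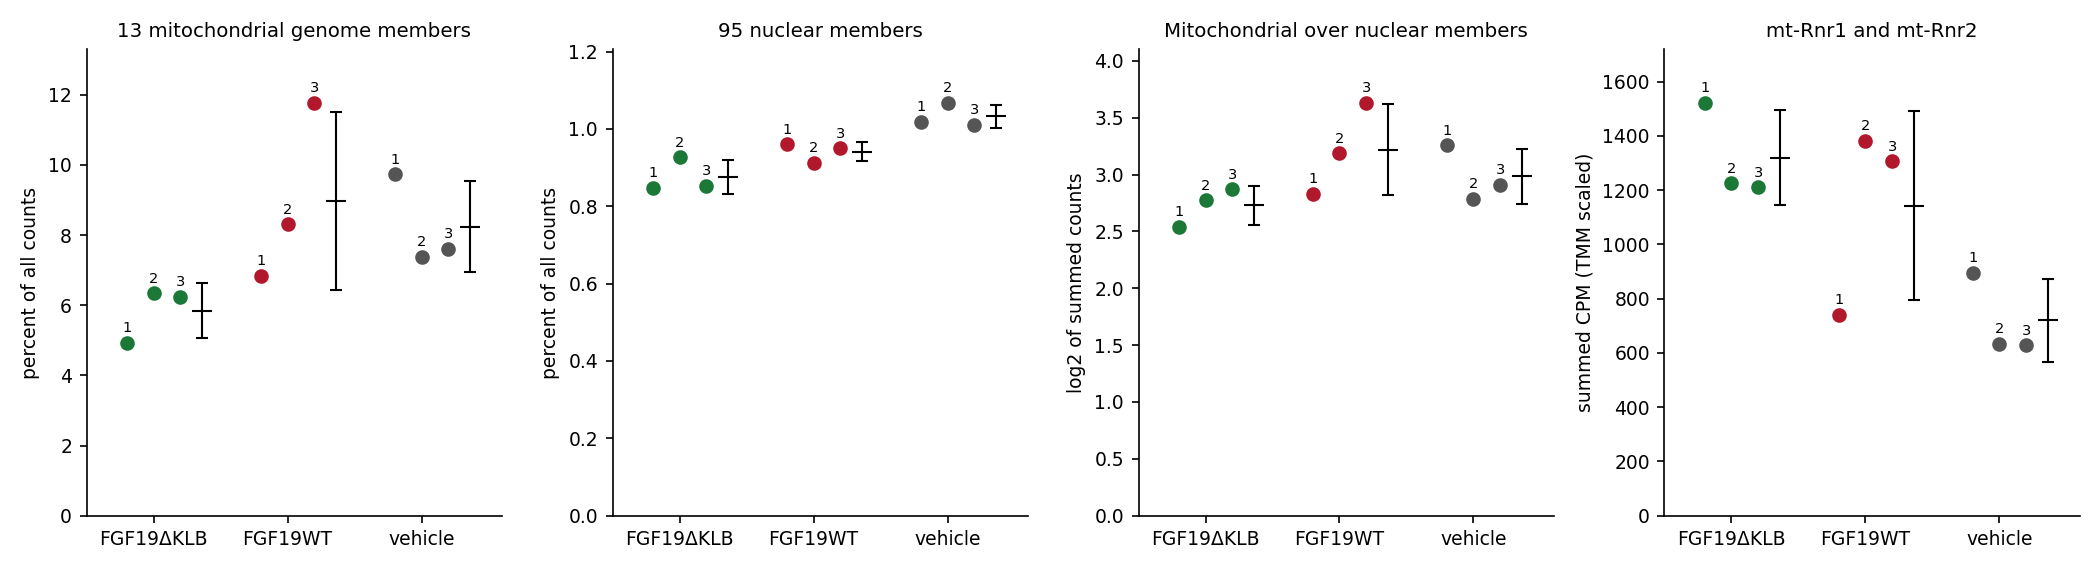
Share of counts in mitochondrial and nuclear members, the log2 ratio of the pools and the level of mitochondrial ribosomal RNA, one point per library, for FGF19ΔKLB, FGF19WT and vehicle. FGF19ΔKLB is lowest in the mitochondrial share (4.94% to 6.34%), and its ratio of summed counts overlaps both other groups.

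With FGF19ΔKLB, all 13 mitochondrial members had a lower estimate than with vehicle, and the nuclear members were spread around 0. The mitochondrial log2 fold changes ran from -1.92 to -0.02 with a median of -0.36. Of 91 nuclear members tested, 41 were positive and 50 negative, with a median of -0.03, and over all 18142 genes tested the median was 0.00. Scaled by library totals alone, 14 nuclear members were positive and 77 negative, where the median over all genes was -0.17, and the 13 mitochondrial members were still negative. The mitochondrial members share precursors and are not separate observations, and without FGF19ΔKLB library 1, FGF19ΔKLB library 2 or vehicle library 1 the count of negative ones was 11. No member passed an adjusted p of 0.05 in edgeR's quasi-likelihood test over 9 libraries, which called 0.011% of all genes. At an unadjusted p under 0.05 were 5 mitochondrial members, all lower, and 2 nuclear members, beside 8.35% of all genes. Of those 5, mt-Atp6, which has the lowest estimate (-1.92), rests on vehicle library 1. Without that library its unadjusted p in edgeR was 0.558. DESeq2 called mt-Nd4l, mt-Nd5, mt-Atp8 and Cox4i1, beside 2.04% of all genes, and limma called none.

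Of the members, 2 passed in edgeR's test over the 6 libraries of FGF19ΔKLB and vehicle, which called 1.68% of all genes. One was mt-Nd4l, a small core subunit in the proton-pumping arm of complex I. It had 647, 756 and 620.2 CPM with FGF19ΔKLB, 929.8, 949.5 and 1102 CPM with FGF19WT, and 1545, 1197 and 1107 CPM with vehicle. The 3 groups do not overlap, and FGF19ΔKLB is lowest. Over 6 libraries mt-Nd4l fell to 0.525 of vehicle (log2 fold change -0.93, 95% interval -1.32 to -0.54, edgeR adjusted p = 0.0465). Without any 1 of the 6 libraries the call was lost (adjusted p 0.0608 to 0.14 in edgeR), and over 9 libraries the adjusted p was 0.253. Its copy Gm10222, identical to it over 294 bases, shares its reads and is not a separate observation. Gm10222 fell alike (edgeR adjusted p = 0.0280 over 6 libraries and 0.221 over 9 libraries). Against FGF19WT the log2 fold change of mt-Nd4l was -0.56 ± 0.21 (SE, edgeR adjusted p = 0.334 over 9 libraries).

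The other mitochondrial complex I subunits were graded. For mt-Nd5, at the far end of the proton-pumping arm, the level was 2148, 2425 and 2264 CPM with FGF19ΔKLB, 2441, 2499 and 3339.9 CPM with FGF19WT, and 3791, 3237 and 3553 CPM with vehicle. FGF19ΔKLB lies below every other library, and the log2 fold change from vehicle was -0.63 ± 0.21 (SE, edgeR adjusted p = 0.480 over 9 libraries). The core subunit mt-Nd4, whose frame overlaps mt-Nd4l by 7 bases, had 3436, 4792 and 4233 CPM with FGF19ΔKLB, 4819.9, 5288 and 8943 CPM with FGF19WT, and 6728, 5282 and 5326 CPM with vehicle, again with FGF19ΔKLB below every other library and a log2 fold change from vehicle of -0.48 ± 0.30 (SE). For mt-Nd2, mt-Nd3 and mt-Nd6 it was -0.34, -0.35 and -0.36, with overlap between those groups for all 3. The gene next to the ribosomal RNAs, mt-Nd1, had 5440.5, 5459 and 7042 CPM with FGF19ΔKLB, 5901, 8348 and 12892 CPM with FGF19WT, and 6514, 6148 and 5575 CPM with vehicle. FGF19ΔKLB and vehicle overlap there (-0.02), and FGF19WT libraries 2 and 3 are the highest.

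In complex III, mt-Cytb, the catalytic haem protein, had 4060.0, 6164 and 5764 CPM with FGF19ΔKLB, 6299.6, 6719 and 11212 CPM with FGF19WT, and 10457, 9152 and 8171 CPM with vehicle. FGF19ΔKLB lies below all other libraries, with a log2 fold change from vehicle of -0.80 ± 0.31 (SE, edgeR adjusted p = 0.539 over 9 libraries). In complex IV, mt-Co1 had 21642, 24168 and 32864 CPM with FGF19ΔKLB, 28871, 22674 and 37666 CPM with FGF19WT, and 31731, 24269 and 25533 CPM with vehicle, with overlap between all groups and a log2 fold change of -0.05 for FGF19ΔKLB against vehicle. Those of mt-Co2 and mt-Co3, the other core subunits, were -0.22 and -0.29, also with overlap. In complex V, mt-Atp8, whose frame overlaps mt-Atp6 by 43 bases, had 1425, 1847 and 1597 CPM with FGF19ΔKLB, 2252, 2064 and 2106 CPM with FGF19WT, and 3309, 2787 and 2176 CPM with vehicle. FGF19ΔKLB is again below all other libraries, with a log2 fold change from vehicle of -0.76 ± 0.23 (SE, edgeR adjusted p = 0.410 over 9 libraries). In all, 5 of the 13 were below vehicle without overlap, beside 12.2% of all genes that were lower in that way.

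The ribosomal RNAs of the same genome, which are not members, had higher values. The 16S RNA mt-Rnr2 had 1043, 808 and 772 CPM with FGF19ΔKLB, 473, 899 and 881 CPM with FGF19WT, and 590.4, 408 and 430.2 CPM with vehicle. The 12S RNA mt-Rnr1 had 479, 418 and 439.7 CPM with FGF19ΔKLB, 269, 483 and 426 CPM with FGF19WT, and 306, 226 and 199 CPM with vehicle. Each FGF19ΔKLB library is above the vehicle range for both. The log2 fold changes of mt-Rnr2 and mt-Rnr1 were 0.88 ± 0.29 and 0.87 ± 0.26 (SE, edgeR adjusted p = 0.478 and 0.412 over 9 libraries). Over 6 libraries the edgeR adjusted p were 0.0735 and 0.0598. Per 1000 counts of mitochondrial members, ribosomal RNA had 28.7, 18.7 and 16.5 counts with FGF19ΔKLB, 10.5, 19.3 and 11.8 with FGF19WT, and 9.42, 8.53 and 8.95 with vehicle. All 6 treated libraries lie above vehicle on that measure. How ribosomal RNA was removed or messenger RNA selected is not given in the sources used here, and its part in these levels was not tested.

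**Figure D3:**
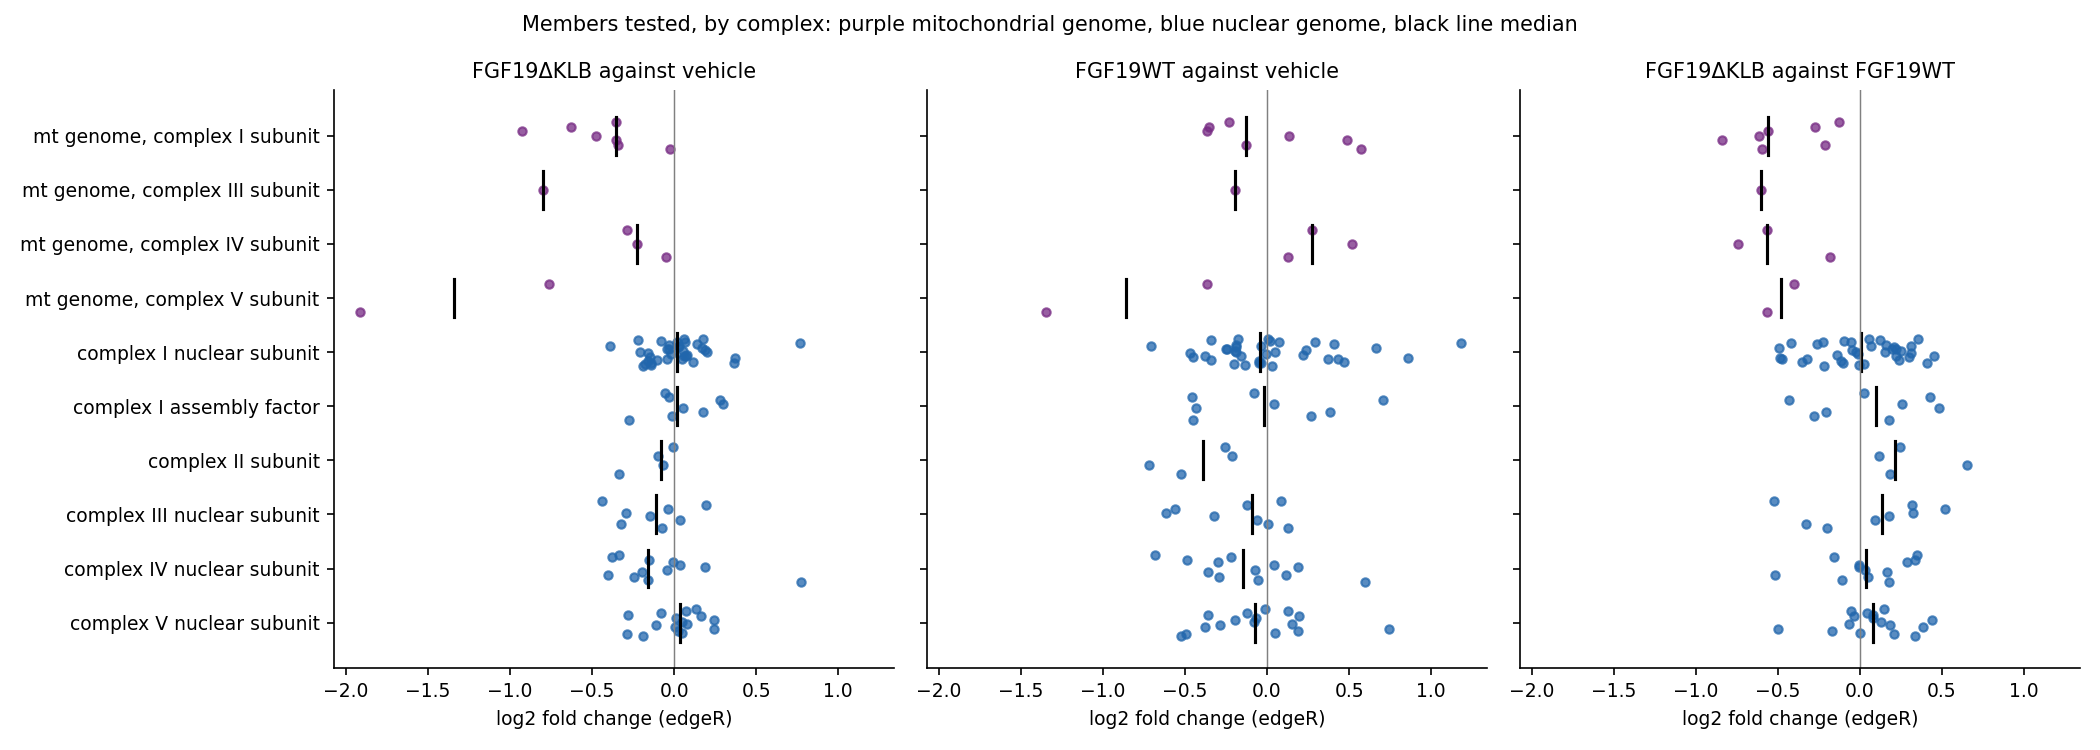
Log2 fold changes of members by complex and genome in the 3 comparisons, one point per gene. Every mitochondrial genome member lies below 0 for FGF19ΔKLB against vehicle and against FGF19WT, with medians of -0.36 and -0.56, while the nuclear medians are -0.03 and 0.05.

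The other member that passed over 6 libraries was the nuclear gene Cox4i1 (chr8:120668222-120674207, GRCm38), the common isoform of subunit 4 of complex IV. It overlaps Emc8 on the opposite strand by 352 bases, and Emc8 averaged 20.6 CPM. Cox4i1 had 367, 390.4 and 448 CPM with FGF19ΔKLB, 424, 286 and 357 CPM with FGF19WT, and 211, 263 and 232 CPM with vehicle. Both treated groups are above vehicle and overlap each other. With FGF19ΔKLB it rose 1.70-fold over 6 libraries (log2 fold change 0.77, 95% interval 0.44 to 1.09, edgeR adjusted p = 0.0465). Without any 1 of the 6 this call was lost too (adjusted p 0.0733 to 0.155 in edgeR), and over 9 libraries the adjusted p was 0.327. For FGF19WT against vehicle the log2 fold change was 0.60 ± 0.20 (SE), with an adjusted p of 0.176 in edgeR over 9 libraries and 0.0368 in DESeq2.

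Of the 12 nuclear complex IV subunits, Cox4i1 was the only one above vehicle without overlap in either treated group. Their median log2 fold change was -0.16 with FGF19ΔKLB and -0.15 with FGF19WT. Cox8a, a small structural subunit, had 77.2, 99.1 and 81.8 CPM with FGF19ΔKLB, 103, 84.2 and 101 CPM with FGF19WT, and 123, 117 and 95.8 CPM with vehicle, with overlap between the groups. In complexes I, II, III and V the nuclear medians for FGF19ΔKLB against vehicle lay between -0.11 and 0.03. Over all nuclear members tested, 4 were above vehicle without overlap and 8 below, beside 12.4% and 12.2% of all genes, where the members' counts are of 91.

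The 8 lower ones, of 91 tested and beside 12.2% of all genes, were Ndufs1, Ndufv1, Sdha, Uqcrc2, Cox5b, Cox6c2, Cox7a1 and Atp5b. Of these, Ndufv1, Cox5b and Cox6c2 are named after their values were seen. The 4 higher ones include Cox4i1, Ndufaf5 and Atp5h, the last 2 also named after their values were seen. Ndufs1, the iron-sulfur protein at the electron entry of complex I, had 94.6, 88.4 and 75.2 CPM with FGF19ΔKLB, 98.3, 59.1 and 50.7 CPM with FGF19WT, and 105, 126 and 108 CPM with vehicle. All 6 treated libraries are below vehicle, with log2 fold changes of -0.39 ± 0.25 for FGF19ΔKLB and -0.70 ± 0.25 for FGF19WT (SE, edgeR adjusted p = 0.745 and 0.186 over 9 libraries). Sdha, the subunit of complex II that oxidises succinate, had 377, 347 and 347 CPM with FGF19ΔKLB, 398, 332 and 211 CPM with FGF19WT, and 445, 487 and 421 CPM with vehicle, also below vehicle in all 6 treated libraries. Atp5b, the catalytic beta chain of complex V, had 741, 694 and 674 CPM with FGF19ΔKLB, 789, 557 and 482 CPM with FGF19WT, and 801, 989 and 781 CPM with vehicle, where FGF19WT library 1 overlaps vehicle.

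**Figure D4:**
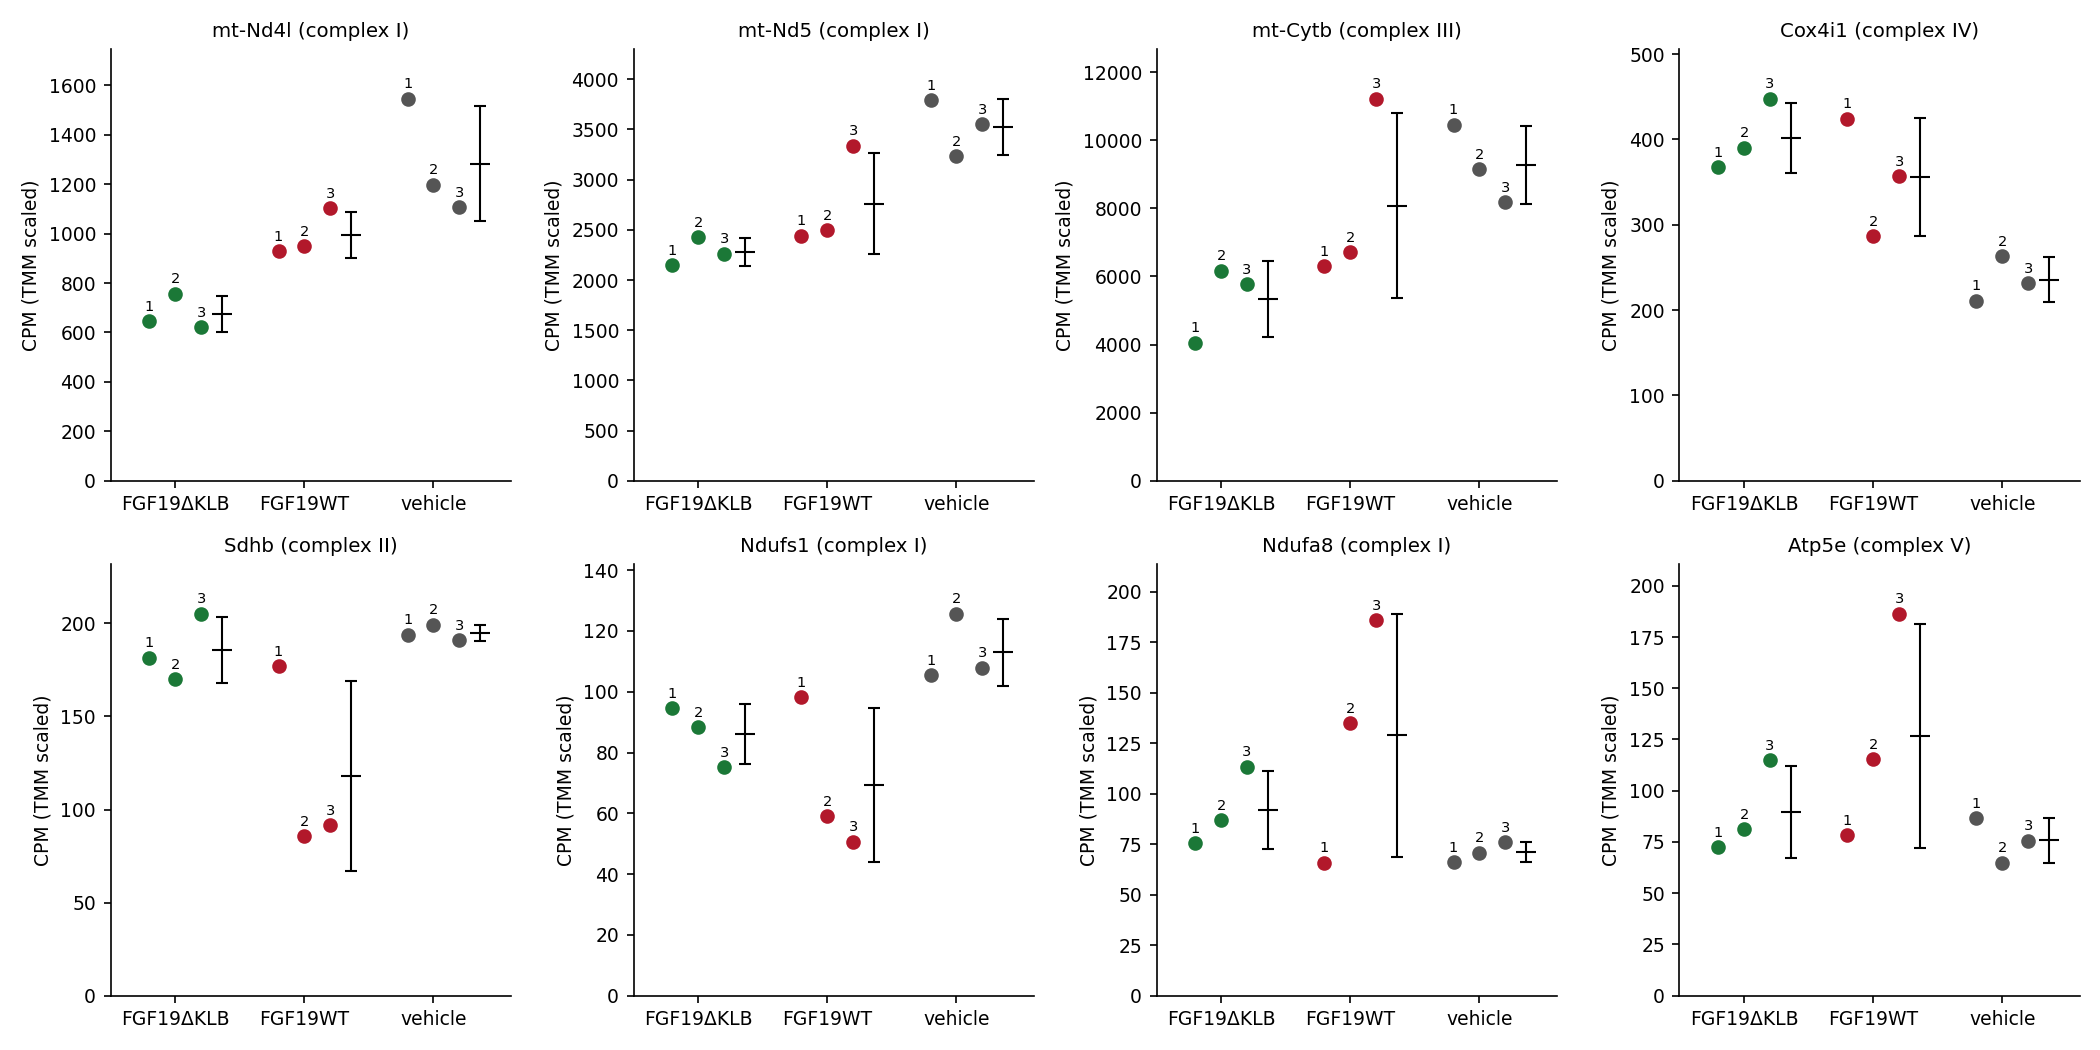
CPM of 8 members, one point per library, with the mean and SD of each group in the order FGF19ΔKLB, FGF19WT and vehicle. FGF19ΔKLB is lowest for mt-Nd4l (620.2 to 756 CPM), Cox4i1 is above vehicle in all 6 treated libraries, and for Sdhb FGF19WT libraries 2 and 3 (85.7 and 91.5 CPM) sit away from the other 7.

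For FGF19WT against vehicle, edgeR called no member over 9 libraries, beside 0.11% of all genes, and none over 6 libraries, beside 0.00574%. At an unadjusted p under 0.05 were 14 of 91 nuclear and 0 of 13 mitochondrial members, beside 18.8% of all genes. DESeq2 called 5 nuclear members (Uqcrc2, Cox4i1, Ndufa4l2, Ndufaf6 and Ndufb4c), beside 9.61%, and limma none. Without overlap, 6 nuclear members were above vehicle and 11 below, with 1 mitochondrial member below, beside 11.0% and 11.6% of all genes. The mitochondrial members were divided, with 6 positive and 7 negative.

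The values turned on FGF19WT libraries 2 and 3. Both lay below all other 7 libraries for 30 of 91 nuclear members, beside 19% of all genes, and above them for 9, beside 18.4%. For the mitochondrial members these counts were 0 and 2 of 13. All 4 subunits of complex II were among those below. Sdhb (chr4:140961203-140979193), its iron-sulfur subunit, had 182, 170.0 and 205 CPM with FGF19ΔKLB, 177, 85.7 and 91.5 CPM with FGF19WT, and 194, 199 and 191 CPM with vehicle. FGF19WT library 1 is close to vehicle. The log2 fold change from vehicle was -0.72 ± 0.27 (SE, edgeR adjusted p = 0.209 over 9 libraries), and -1.14 without FGF19WT library 1 (edgeR adjusted p = 0.000722). The membrane anchor Sdhc had 171, 181 and 175 CPM with FGF19ΔKLB, 188, 145 and 152 CPM with FGF19WT, and 185, 202 and 177 CPM with vehicle. The other anchor, Sdhd, had 194, 209 and 174 CPM with FGF19ΔKLB, 222, 133 and 132 CPM with FGF19WT, and 193, 219.9 and 168 CPM with vehicle. For both anchors the lowest values are those of FGF19WT libraries 2 and 3.

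Without FGF19WT library 1, edgeR called 7 nuclear members higher and 19 lower than vehicle, and 1 mitochondrial member (mt-Nd1) higher, beside 27.4% of all genes; for FGF19ΔKLB against vehicle that fit called 0 members, beside 0.904%. The 7 include Cox6a2, which passed the filter of that fit only through FGF19WT libraries 2 and 3, where it is high, and so had to differ. Among the lower ones, Uqcrfs1, the iron-sulfur protein of complex III, had 177, 184 and 173 CPM with FGF19ΔKLB, 174, 108 and 90.8 CPM with FGF19WT, and 188, 185 and 175 CPM with vehicle. Uqcrc2, a core protein of the same complex, had 204, 194 and 182 CPM with FGF19ΔKLB, 201, 139 and 124 CPM with FGF19WT, and 226, 258 and 228 CPM with vehicle. Both are lowest in FGF19WT libraries 2 and 3, and for Uqcrc2 all 6 treated libraries are below vehicle. Atp5a1 had 763, 707 and 679 CPM with FGF19ΔKLB, 755, 487 and 463 CPM with FGF19WT, and 769, 934 and 753 CPM with vehicle, with the same 2 libraries lowest.

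Among the higher ones, Ndufa8 (chr2:36036326-36049406) had 75.5, 86.9 and 113 CPM with FGF19ΔKLB, 65.9, 135 and 186 CPM with FGF19WT, and 66.3, 70.9 and 76.1 CPM with vehicle. The 2 FGF19WT libraries that stand apart are the highest, and library 1 is the lowest of all. The log2 fold change from vehicle was 0.86 ± 0.34 (SE, edgeR adjusted p = 0.223 over 9 libraries), and -0.11 without FGF19WT libraries 2 and 3. Atp5e, a small subunit of the central stalk of complex V, had 72.4, 81.3 and 115 CPM with FGF19ΔKLB, 78.4, 115 and 186 CPM with FGF19WT, and 86.6, 64.9 and 75.7 CPM with vehicle. Its log2 fold change for FGF19WT against vehicle was 0.74 ± 0.32 (SE, edgeR adjusted p = 0.255 over 9 libraries).

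With FGF19WT the sizes of the genes bore a relation to these values. Across 88 nuclear members with a coding transcript, Spearman's rho between coding length and the log2 fold change for FGF19WT against vehicle was -0.32; these points are genes of the same libraries and not independent. The 22 members with up to 300 coding bases had a median of 0.02, the 42 from there to 600 bases -0.06, the 9 from there to 900 bases -0.18, and the 15 longer ones -0.45. Over all 14176 genes with a coding transcript rho was -0.05, with medians of 0.11 in the shortest class and -0.04 in the longest. For FGF19ΔKLB against vehicle rho over the members was -0.01 and the longest class had a median of -0.15. Coding length was chosen after the values were seen, and the part of RNA quality was not tested.

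**Figure D5:**
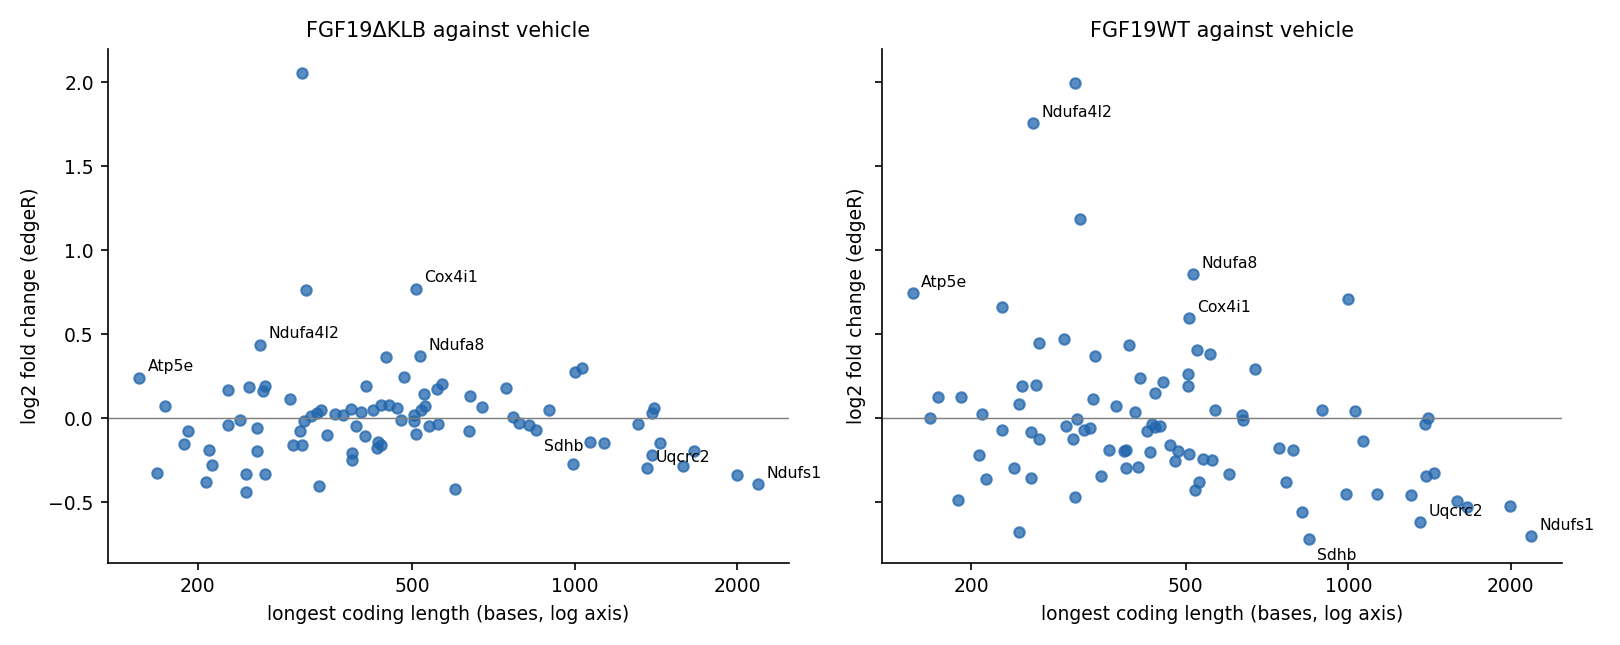
Log2 fold change against vehicle of 88 nuclear members by coding length (log axis, bases), for FGF19ΔKLB and FGF19WT, one point per gene. With FGF19WT the 15 longest members have a median of -0.45, and with FGF19ΔKLB -0.15.

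Assembly factors, restricted paralogs and the pseudogene Ndufb4c had low levels. Ndufaf6, an assembly factor of complex I, had 6.01, 5.23 and 6.86 CPM with FGF19ΔKLB, 7.37, 7.95 and 9.07 CPM with FGF19WT, and 4.10, 5.70 and 5.14 CPM with vehicle. FGF19WT is above vehicle in each library, with a log2 fold change of 0.71 ± 0.20 (SE) and an adjusted p of 0.141 in edgeR over 9 libraries and 0.0151 in DESeq2. Ndufaf1, which helps to build the membrane arm of complex I, had 18.0, 17.3 and 21.5 CPM with FGF19ΔKLB, 20.5, 13.4 and 16.4 CPM with FGF19WT, and 23.0, 24.3 and 21.4 CPM with vehicle, with FGF19WT below vehicle in each library. Ndufa4l2, a paralog of Ndufa4 known to be induced by hypoxia, had 2.35, 1.96 and 6.36 CPM with FGF19ΔKLB, 3.55, 14.8 and 8.20 CPM with FGF19WT, and 1.74, 3.56 and 2.57 CPM with vehicle. FGF19WT overlaps vehicle by library 1, and the log2 fold change was 1.76 ± 0.62 (SE, edgeR adjusted p = 0.187 over 9 libraries, DESeq2 adjusted p = 0.0496). Ndufb4c is a processed pseudogene of the complex I subunit Ndufb4, identical to it over 390 bases, and had 3.37, 2.90 and 5.08 CPM with FGF19ΔKLB, 3.16, 3.50 and 3.09 CPM with FGF19WT, and 4.19, 7.26 and 6.87 CPM with vehicle. Ndufb4 itself, given after its values were seen, had 26.7, 33.4 and 31.3 CPM with FGF19ΔKLB, 32.3, 27.7 and 32.7 CPM with FGF19WT, and 38.6, 33.7 and 33.3 CPM with vehicle. For both, FGF19WT is below vehicle in each library, and neither level can be read apart from the other, which holds for the DESeq2 call of Ndufb4c too.

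Cox6a2, the heart and skeletal muscle form of subunit 6a, had 4.63 and 16.2 CPM in FGF19WT libraries 2 and 3 and at most 0.107 CPM in the other 7, which left it outside the low-count filter over 9 libraries. The 4 striated muscle markers in the table, of 7 listed, summed to at most 0.885 CPM in any library. The liver form, Cox6a1, had 81.0, 99.3 and 112 CPM with FGF19ΔKLB, 112, 138 and 168 CPM with FGF19WT, and 128, 149 and 108 CPM with vehicle. Also outside the filter were Cox4i2, Cox8b and Ndufa11b, with 53, 14 and 2 counts in all, and just inside it were Cox6b2 with 248 and Cox7a1 with 515.

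For FGF19ΔKLB against FGF19WT, edgeR called no member over 9 libraries (0.0% of all genes) or over 6 (0.00584%). At an unadjusted p under 0.05 were 3 nuclear members and mt-Nd4l, beside 12.5% of all genes. DESeq2 called mt-Nd4l, beside 4.6%, and limma no member. Sdhb had a log2 fold change of 0.65 ± 0.27, Cox6a1 -0.52 ± 0.21 and Ndufa6, an accessory subunit of complex I, -0.48 ± 0.20 (SE, edgeR adjusted p 0.365 to 0.380 over 9 libraries). The mitochondrial median was -0.56 with all 13 negative, and -0.14 with 10 negative without FGF19WT libraries 2 and 3. Of the nuclear members 52 were positive and 39 negative, and 26 and 65 when scaled by library totals alone. Without overlap, 7 mitochondrial members were lower with FGF19ΔKLB, 4 nuclear members higher and 3 lower, beside 7.15% of all genes higher and 6.39% lower. Without FGF19WT library 1, edgeR called 16 nuclear members higher, 3 nuclear and 3 mitochondrial members lower, beside 20.2% of all genes, and 1 of those 3 nuclear members is Cox6a2, again admitted by the libraries where it is high. The comparisons share their libraries and are not independent of one another.

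Genes that serve these complexes were read from lists, and their counts stand beside 8.35% of all genes for FGF19ΔKLB and 18.8% for FGF19WT against vehicle at an unadjusted p under 0.05, and 2.04% and 9.61% in DESeq2. Of 17 genes of mitochondrial transcription and genome maintenance, edgeR over 9 libraries called 0 in each comparison; 0 had an unadjusted p under 0.05 for FGF19ΔKLB against vehicle and 3 for FGF19WT against vehicle, where DESeq2 called 0 and 1. Tfam, which packages the mitochondrial genome and starts its transcription, had 45.9, 43.7 and 42.2 CPM with FGF19ΔKLB, 41.9, 34.9 and 35.7 CPM with FGF19WT, and 42.7, 42.9 and 38.6 CPM with vehicle, with overlap between FGF19ΔKLB and vehicle. Polrmt, the mitochondrial RNA polymerase, had a log2 fold change of -0.09 ± 0.16 for FGF19ΔKLB and 0.01 ± 0.16 for FGF19WT against vehicle (SE). Of the 3 genes at an unadjusted p under 0.05 for FGF19WT, 2 were higher and 1, Tfb2m, was lower. Tfb2m had 19.1, 20.4 and 17.0 CPM with FGF19ΔKLB, 18.1, 15.0 and 12.3 CPM with FGF19WT, and 23.2, 21.9 and 21.4 CPM with vehicle. Each treated library is below vehicle (edgeR adjusted p = 0.775 for FGF19ΔKLB and 0.146 for FGF19WT over 9 libraries). Of 17 genes of mitochondrial RNA processing and stability, edgeR called 0, and 0 for FGF19ΔKLB and 3 for FGF19WT against vehicle had an unadjusted p under 0.05, with 0 and 1 called by DESeq2. Lrpprc, which stabilises mitochondrial messenger RNA, had 85.4, 83.1 and 80.6 CPM with FGF19ΔKLB, 82.4, 51.8 and 38.1 CPM with FGF19WT, and 73.3, 80.1 and 72.4 CPM with vehicle. It lies just above vehicle in each FGF19ΔKLB library and is lowest in FGF19WT libraries 2 and 3. Among 11 coactivators and transcription factors edgeR called 0, with 1 for FGF19ΔKLB and 0 for FGF19WT at an unadjusted p under 0.05 and 0 by DESeq2 in both. The coactivator Ppargc1a had 7.71, 7.09 and 8.78 CPM with FGF19ΔKLB, 11.4, 4.86 and 4.47 CPM with FGF19WT, and 10.9, 6.88 and 9.12 CPM with vehicle, with overlap between all groups.

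Electron carriers and the citric acid cycle had negative medians. The 17 genes of electron carriers and quinone synthesis had medians of -0.17 for FGF19ΔKLB and -0.28 for FGF19WT against vehicle. EdgeR called 0 over 9 libraries; 1 and 7 had an unadjusted p under 0.05, beside 8.35% and 18.8% of all genes, and DESeq2 called 0 and 2, beside 2.04% and 9.61%. Coq8a, needed to make coenzyme Q, had 87.2, 69.4 and 175 CPM with FGF19ΔKLB, 117, 79.7 and 71.1 CPM with FGF19WT, and 202, 198 and 197 CPM with vehicle. Etfdh, which feeds electrons from fatty acid oxidation into that carrier, had 247, 176 and 194 CPM with FGF19ΔKLB, 212, 179 and 97.7 CPM with FGF19WT, and 329, 347 and 269.6 CPM with vehicle. Both are below vehicle in all 6 treated libraries. The 13 citric acid cycle genes had medians of -0.22 and -0.34; edgeR called 0, 0 and 5 had an unadjusted p under 0.05, and DESeq2 called 0 and 2, beside the same shares of all genes. Cs, citrate synthase, had 69.2, 64.4 and 71.9 CPM with FGF19ΔKLB, 73.1, 225 and 177 CPM with FGF19WT, and 107, 129 and 91.4 CPM with vehicle. Idh3a, a subunit of isocitrate dehydrogenase, had 17.5, 22.3 and 18.9 CPM with FGF19ΔKLB, 23.3, 111 and 109.8 CPM with FGF19WT, and 26.5, 24.4 and 21.9 CPM with vehicle. FGF19WT libraries 2 and 3 are the highest for both, and FGF19ΔKLB is below vehicle for Cs and overlaps it for Idh3a.

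The other mitochondrial lists had medians of either sign. For FGF19ΔKLB and FGF19WT against vehicle the medians were 0.06 and 0.03 over 78 mitochondrial ribosomal protein genes, 0.08 and 0.16 over 20 genes of import and the outer membrane, and -0.02 and -0.12 over 39 other assembly factors. EdgeR over 9 libraries called 0 of these; at an unadjusted p under 0.05 were 4 and 11, 1 and 4, and 0 and 7 genes, beside 8.35% and 18.8% of all genes, and DESeq2 called 1 and 1, 0 and 0, and 0 and 2, beside 2.04% and 9.61%. Timmdc1, an assembly factor of complex I, had 25.4, 25.2 and 26.2 CPM with FGF19ΔKLB, 28.0, 46.9 and 49.3 CPM with FGF19WT, and 25.1, 23.4 and 24.0 CPM with vehicle. Its FGF19WT libraries are above vehicle, 2 and 3 most of all. Acad9, which also helps to assemble complex I, had 30.0, 26.9 and 37.5 CPM with FGF19ΔKLB, 33.4, 22.6 and 22.5 CPM with FGF19WT, and 40.9, 43.8 and 41.6 CPM with vehicle, with all 6 treated libraries below vehicle.

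Promoters of the nuclear members were searched because these genes share textbook regulators, among them NRF1 and ETS-family factors. RefSeq promoters (GRCm38.p6) were matched for 73 of 95 nuclear members. The 250 bases before the start were read on both strands, and a gene counted if any of its promoters held the letters. The NRF1 motif (GCGCN followed by TGCGC) was present in 14 (19.2%), against 5.84% of 17492 protein-coding genes with a promoter. The ETS letters CCGGAAG were present in 14 (19.2%), against 10.2%. The YY1 motif (AANAT followed by GGCGG) was found in 1 (1.37%, against 0.81%) and the ERR letters TNAAGGTCA in 2 (2.74%, against 1.11%), and 25 members had NRF1 or ETS letters. The promoters of Sdha (chr13:74350241-74350490, minus strand) and Ndufa8 (chr2:36049339-36049588, minus strand) are shown because FGF19WT libraries 2 and 3 were the lowest of all for the first gene and the highest for the second, and both hold NRF1 letters. Capitals mark those letters, which begin 98, 55 and 10 bases before the start in Sdha and 30 bases before it in Ndufa8.
Sdha: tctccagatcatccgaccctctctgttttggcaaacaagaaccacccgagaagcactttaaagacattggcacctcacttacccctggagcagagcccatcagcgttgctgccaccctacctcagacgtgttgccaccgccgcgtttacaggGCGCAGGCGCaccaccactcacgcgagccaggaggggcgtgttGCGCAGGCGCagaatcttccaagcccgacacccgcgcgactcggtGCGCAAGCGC
Ndufa8: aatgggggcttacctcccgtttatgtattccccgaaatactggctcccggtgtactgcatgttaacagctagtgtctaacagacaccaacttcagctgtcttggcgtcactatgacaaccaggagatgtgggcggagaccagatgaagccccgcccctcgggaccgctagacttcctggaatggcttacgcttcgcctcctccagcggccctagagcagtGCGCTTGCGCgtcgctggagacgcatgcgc

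The level of Nrf1 was 4.68, 6.89 and 4.78 CPM with FGF19ΔKLB, 4.88, 6.01 and 4.59 CPM with FGF19WT, and 3.43, 3.34 and 3.95 CPM with vehicle. All 6 treated libraries lie above vehicle, with log2 fold changes of 0.61 ± 0.23 for FGF19ΔKLB and 0.53 ± 0.23 for FGF19WT (SE, edgeR adjusted p = 0.539 and 0.268 over 9 libraries). Other listed transcription factors differed from Nrf1. Gabpa had 34.0, 30.7 and 22.9 CPM with FGF19ΔKLB, 25.5, 25.6 and 17.4 with FGF19WT, and 29.8, 30.1 and 32.8 with vehicle. Its FGF19WT libraries lie below vehicle. Esrrg had 2.87, 3.42 and 1.46 CPM with FGF19ΔKLB, 4.86, 10.5 and 8.65 with FGF19WT, and 5.30, 4.69 and 3.93 with vehicle. Its FGF19ΔKLB libraries lie below vehicle. The part of these factors was not tested.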

How the data were processed

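Liver RNA of 9 libraries was sequenced, and the authors deposited 1 table with estimated counts (whole numbers, not scaled) and FPKM per gene. Per the submitters' processing notes, the tools were HISAT2 2.0, StringTie 1.3.0 and Bowtie 0.12.2, with no roles given, and the build is given as mm8, whereas positions match GENCODE M21 on GRCm38. The strand setting is not given in the sources used here. The deposited counts were tested with edgeR 4.0.16 (quasi-likelihood, TMM scaling, low-count filter, Benjamini-Hochberg over all genes), which kept 18142 genes and 104 members. Levels are TMM-scaled CPM. Near-identical copies were found with BLAST 2.17.0.

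The members and lists were chosen with earlier results of these data known. Named genes were drawn from the mitochondrial and Sdh members, the most abundant and the lowest-p genes of each role or list, restricted paralogs and fixed regulators. Not every lowest-p gene of the other lists is given. Alternatives were other filters and scalings, DESeq2 1.42.0, limma 3.58.1 on log2(FPKM + 1), fits over 6 libraries, a replicate block and left-out libraries. Counts divided by 4, summed copies, and left-out libraries and the block in 6-library fits were chosen after seeing the data.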

Additional observations from a re-analysis of the deposited data

How the results depend on the processing

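For FGF19ΔKLB against vehicle, DESeq2 called 1 nuclear and 3 mitochondrial members, and 1 of each was called over 6 libraries and without FGF19WT libraries 2 and 3; other settings over 9 libraries and every left-out library called 0. Over the 6 libraries 2 were called, and 0 with a replicate block or without any 1 library. For FGF19WT against vehicle, DESeq2 called 5 nuclear members, and leaving out single libraries gave 0 to 26 nuclear and 0 to 1 mitochondrial members (0 to 20 over 6 libraries, where the most came beside 25.5% of all genes). For FGF19ΔKLB against FGF19WT, DESeq2 called 1 mitochondrial member, and left-out libraries gave 0 to 19 nuclear and 0 to 3 mitochondrial members (0 to 6 over 6 libraries, where the most came beside 15.8% of all genes). All counts above 0 from left-out libraries came without FGF19WT library 1, where 27.4% and 20.2% of all genes were called over the other libraries.

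With library totals alone the median over all genes moved to -0.17 for FGF19ΔKLB against vehicle and to -0.20 against FGF19WT, and the nuclear medians with it to -0.20 and -0.16; with limma on FPKM they were -0.19 and -0.12. The cause of the limma values was not tested. Leaving out single libraries, the nuclear median ranged from -0.10 to 0.03 for FGF19ΔKLB against vehicle, -0.14 to -0.01 for FGF19WT against vehicle and -0.005 to 0.15 between the proteins, and the mitochondrial median from -0.50 to -0.22, from -0.25 to 0.25 and from -0.68 to -0.29; without FGF19WT libraries 2 and 3 the last was -0.14. The log2 ratio of mitochondrial to nuclear members differed by -0.35 to -0.12, 0.02 to 0.42 and -0.68 to -0.28 over left-out libraries, by -0.47 for FGF19ΔKLB against vehicle as a difference of mean log2 CPM, and by -0.15 for FGF19WT against vehicle and -0.10 between the proteins without FGF19WT libraries 2 and 3, where mt-Nd1 (-0.042) and Ndufa8 (-0.11) also reversed for FGF19WT against vehicle. Same-numbered libraries did not deviate together (correlations -0.07 to 0.18), so no pairing by number was seen. With 3 libraries in each group these correlations cannot exclude one. The replicate block over 9 libraries called 0 members in all 3 comparisons.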
